A study of Canis lupus familiaris with 6 samples.

Results

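Long noncoding RNA (lncRNA) genes give rise to transcripts that are spliced and often polyadenylated like mRNAs but are not known to encode a protein. Some act as RNAs in the nucleus or the cytoplasm, some regulate the gene beside them, and some serve mainly as hosts whose introns or exons are cut out as small nucleolar RNAs (snoRNAs) or microRNAs. In the deposited gene table, 201 of 35993 genes were listed as lncRNA and had a read count of 100 or more in each of 6 libraries. The table holds 10681 lncRNA genes in all, of which 2793 were detected in one or more libraries and 1040 passed the filter on low counts that came before the test. All 201 well-counted genes passed it. They were chosen by their counts in these same libraries, so their abundance is a description, and a gene that was nearly silent in either group could not be among them.

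The libraries came from CPEK, a line of canine progenitor epidermal keratinocytes with a wild-type genotype. For 3 libraries the cells were exposed directly to cold atmospheric microwave plasma for 30 s (dCAMP), and 3 gas controls received the gas without plasma. In both groups the medium was replaced after 15 min and total RNA was collected after another 24 h, for mRNA libraries made with a stranded kit. The age and sex of the donor were not given, and a range of passages was given for the line but not the passage behind each library. The methods speak of independent experiments in general without saying so of the sequenced libraries, so the p-values measure the spread between these libraries, which may be technical.

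Total counts lay between 43084921 and 54082634 per library. The keratinocyte markers (KRT5, KRT14 and 8 others) summed to 50200 to 59580 CPM (counts scaled to the normalized library size) in the gas libraries and 46960 to 49950 CPM in the dCAMP libraries, and all 10 were detected. Most of each sum was KRT5 and KRT14, and both were lower in every dCAMP library than in any gas library. ITGA6, DSC3 and CDH1 were higher in every dCAMP library than in any gas library. For KRT15, TP63, ITGB4, DSP and LAMB3 the groups overlapped. Of the fibroblast markers COL3A1 was the highest, at 3.58 to 4.45 CPM over the libraries, and COL1A1, COL1A2 and PDGFRA were detected in each library. So were PMEL of melanocytes and CD14 and CD68 of leukocytes. The summed markers of other cell types were at most 5.83 CPM for fibroblasts, with DCN and LUM at 0, 0.843 CPM for melanocytes, with TYR, DCT and TYRP1 at 0, and 3.03 CPM for leukocytes, with PTPRC and CD3E at 0. Those of endothelial cells summed to 15.6 to 18.4 CPM in the gas libraries and 18.8 to 24.7 CPM in the dCAMP libraries, without overlap; most of this was VWF (11.5 to 18.6 CPM over the libraries), KDR was at 3.41 to 5.98 CPM and PECAM1 at 0, and the part of these genes in the results was not tested. The gas libraries differed among themselves far more than the dCAMP libraries did: chi-square divided by its degrees of freedom, about 1 if replicates differ by counting error only, came to 79.6 to 297 for pairs of gas libraries and to 6.26 to 9.69 for pairs of dCAMP libraries. Gas 1 stood farthest from the rest and gas 3 nearest to the dCAMP libraries, and values without one of the libraries are given beside the genes that depended on it most.

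The well-counted lncRNA genes held 86.7% of all counts assigned to lncRNA genes. They lay on 38 chromosomes, and their longest listed transcripts ranged from 206 to 14390 bases, with a median of 1993. Each had a transcript shorter than its genomic span, so introns were annotated in all of them. A single transcript was listed for 120 genes, and the 201 genes had 545 transcripts together, of which 0 were at 0 counts throughout one group and at 10 or more in each library of the other. FPKM, the fragments mapped to a gene scaled to transcript length and sequencing depth, allows levels to be compared between genes. Mean FPKM ran from 0.419 to 1997 with a median of 3.73, 54 genes were at 10 or more, and 19 were under 1. The 10380 protein-coding genes that met the same count minimum had a median of 12.6 FPKM. At the lower edge of the rule, LOC106558729, LOC111097435 and LOC102154020 entered with lowest counts of 100, 101 and 102, while LOC102152872, LOC111091128 and LOC111098495 stayed outside with a lowest count of 98 each.

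Most well-counted lncRNA loci touched or adjoined a protein-coding locus. In the CanFam3.1 coordinates of the transcript table, 56 of the 201 loci (27.9%) overlapped a protein-coding locus: 16 lay inside one, 33 overlapped one in part and 7 held a whole one. Another 87 (43.3%) lay within 5000 bases of a protein-coding locus and 58 (28.9%) lay farther away. The other 839 lncRNA genes tested were spread in nearly the same way, with 33.4% overlapping, 37.8% within 5000 bases and 28.8% farther away. Over all 10480 other lncRNA genes of the table, most of them with few or no counts, 31.0% overlapped, 15.7% lay within 5000 bases and 53.4% lay farther away. Among the loci that overlapped no protein-coding gene, the median gap was 2048 bases for the well-counted genes, 3115 for the others tested and 34640 for all others. A gap under 500 bases was found for 45 of 145 well-counted genes (31.0%), against 28.3% and 9.59%.

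**Figure D1:**
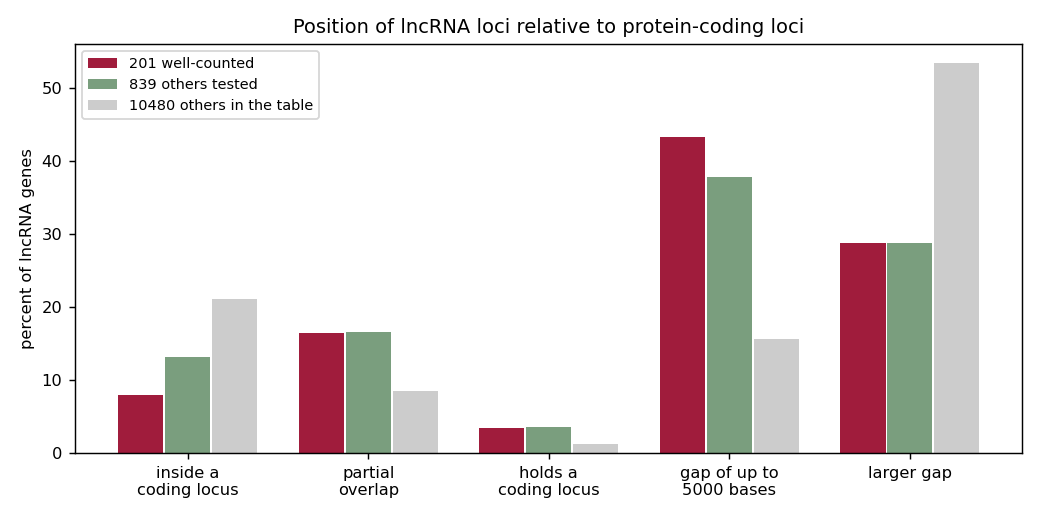
Percent of lncRNA genes (y axis) by position relative to protein-coding loci (x axis), for the 201 well-counted genes, the 839 others tested and the 10480 others in the table. A gap of up to 5000 bases was found for 43.3% of the well-counted genes and for 15.7% of the others in the table, and 28.9% and 53.4% lay farther away.

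The table's classes did not always hold in a newer annotation of the dog genome (RefSeq on UU_Cfam_GSD_1.0), which was used for names, classes and neighbours only. It listed 152 of the 201 genes: 133 as lncRNA, 17 as protein-coding, 1 as misc_RNA and 1 as snoRNA. The class of the 49 genes that it does not list could not be checked there, and some of them may be protein-coding. Genes now listed as protein-coding were 11.2% of those matched, against 4.12% of the matched genes among the other lncRNA genes tested. Among these 17 were ATP6V1G1 (listed in the deposited table as LOC612591), a subunit of the vacuolar proton pump, ID2 (LOC100686903), an inhibitor of basic helix-loop-helix transcription factors, PHLDA3 (LOC102156469), a p53-induced inhibitor of AKT, TMEM123 (LOC100856041), VSNL1 (LOC111090507), a neuronal calcium sensor, and TRNP1 (LOC111093316). A further 14 genes were snoRNA hosts by that annotation, counting the gene listed there as a snoRNA. These classes were formed after the fold changes had been computed and are described without a test.

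The most counted gene was LOC111097575, at chr10:437459-438753, whose 1 listed transcript has 524 bases. It lay 409 bases from ZC3H10, a zinc finger protein gene, with PA2G4 on its other side. The newer annotation does not list it, so its class as noncoding rests on the deposited table alone and was not checked. Its level was 2203 ± 366 FPKM (SD, n = 3) in the gas control and 1790 ± 30.8 FPKM (SD, n = 3) in dCAMP-treated cells. It held 24.0% of all counts of the 201 genes, between 21.2% and 28.8% over the libraries. After normalization it had 1467, 1369 and 1089 CPM in gas libraries 1, 2 and 3 and 1078, 1042 and 1083 CPM in the dCAMP libraries. On this scale the groups did not overlap, but gas 3 was close to dCAMP 3. As a share of all counts, without the normalization, they did overlap, with 0.1068% in gas 3 against 0.1075% in dCAMP 1 and 0.1095% in dCAMP 3. The log2 fold change was −0.29 with a standard error (SE) of 0.12 (edgeR, unadjusted p = 0.0460, adjusted p = 0.240). It was −0.22 without gas 1 and −0.46 without gas 3, where the adjusted p was 0.0203. Gas 3 was the gas library nearest to the dCAMP libraries, and without it 33.1% of all genes tested had an adjusted p under 0.05. This applies to each adjusted p without gas 3 given below. With any other 1 library left out, the adjusted p of LOC111097575 was 0.272 to 0.502. ZC3H10 had a log2 fold change of −0.34 (unadjusted p = 0.0220). In bulk RNA such as this, fewer cells that express a gene and less of its RNA per cell cannot be told apart.

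LOC102154912, at chr13:45479574-45483389, was the next most counted. It had 289.6, 264.8 and 267.4 CPM in the gas libraries and 212.5, 224.9 and 210.8 CPM in the dCAMP libraries, so that every dCAMP library lay below every gas library. Its log2 fold change was −0.34 (SE 0.08, edgeR, unadjusted p = 0.00380, adjusted p = 0.221), and −0.41 with an adjusted p of 0.0228 without gas 3. LOC111098614, on one side of it, and LOC102155122, on the other, were also well counted, and the 3 genes covered chr13:45476481-45510948 between USP46, a deubiquitinating enzyme gene, and RASL11B. LOC111098614 had 61.7, 53.5 and 45.8 CPM in the gas libraries and 41.9, 41.8 and 37.9 CPM in the dCAMP libraries (log2 fold change −0.40, unadjusted p = 0.02145). LOC102155122 had 24.2, 20.7 and 20.4 CPM against 15.1, 16.7 and 15.7 CPM (log2 fold change −0.46, unadjusted p = 0.00664). All 3 were lower in each dCAMP library than in any gas library, while USP46 had a log2 fold change of 0.17 (unadjusted p = 0.134). The newer annotation places 2 snoRNA genes between USP46 and RASL11B.

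By FPKM, the highest after LOC111097575 were LOC100684741 and LOC606860. LOC100684741, at chr12:1305188-1307196 between HSP70 and NEU1, hosts 2 snoRNA genes and had 287 ± 7.71 FPKM in the gas control and 253 ± 10.3 FPKM in dCAMP-treated cells (SD, n = 3 each). LOC606860, at chr13:1835897-1852413 and 963 bases from VPS13B, had 240.0 ± 15.3 FPKM and 272.5 ± 16.0 FPKM (SD, n = 3 each). Its log2 fold change of 0.18 had an unadjusted p of 0.0887 and was 0.11 without dCAMP 2, whereas that of LOC100684741 was −0.18 with an unadjusted p of 0.0428.

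Of the other 8 among the 12 most counted genes, 3 had an unadjusted p under 0.05 and were lower in dCAMP-treated cells. PHLDA3 had 175.2, 160.8 and 145.0 CPM in the gas libraries and 126.9, 140.4 and 127.6 CPM in the dCAMP libraries (log2 fold change −0.28, unadjusted p = 0.0281). LOC100688091, 4741 bases from WDR74, had 151.9, 146.0 and 136.8 CPM against 114.0, 124.0 and 102.8 CPM (log2 fold change −0.35, unadjusted p = 0.0115). LOC106557987, 1025 bases from MARVELD1, had 100.6, 86.9 and 84.0 CPM against 72.2, 78.3 and 76.0 CPM (log2 fold change −0.26, unadjusted p = 0.0403). In each of these the groups did not overlap, with differences of less than 1.5-fold.

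The remaining 5 held one gene that met the 2-fold call, LOC106559503, described further on, and 4 that had an unadjusted p of 0.05 or more. ATP6V1G1 had 90.1, 128.5 and 167.4 CPM in the gas libraries and 179.4, 180.8 and 179.7 CPM in the dCAMP libraries. For this gene the log2 fold change of 0.48 (unadjusted p = 0.0628) was 0.27 without gas 1 (unadjusted p = 0.0452) and 0.67 without gas 3 (adjusted p = 0.0280). LOC102153843, 183 bases from MORC2, had 37.3, 67.4 and 90.6 CPM against 88.9, 87.6 and 87.4 CPM, with gas 3 above all dCAMP libraries. The log2 fold change of 0.43 (unadjusted p = 0.1945) was 0.14 without gas 1 and 0.70 without gas 3 (unadjusted p = 0.0290). In both, the 3 dCAMP libraries were nearly equal and the range of the gas libraries was wider than the difference between the group means. LOC111095709, listed as protein-coding C4H10orf99 in the newer annotation, had a log2 fold change of −0.13 (unadjusted p = 0.378), which was −0.03 without gas 1 and −0.30 without gas 3 (adjusted p = 0.0448). LOC102155865, which overlapped the KCTD2 locus, had one of −0.07 (unadjusted p = 0.3645), which was −0.12 without gas 3 and −0.13 without dCAMP 2.

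**Figure D2:**
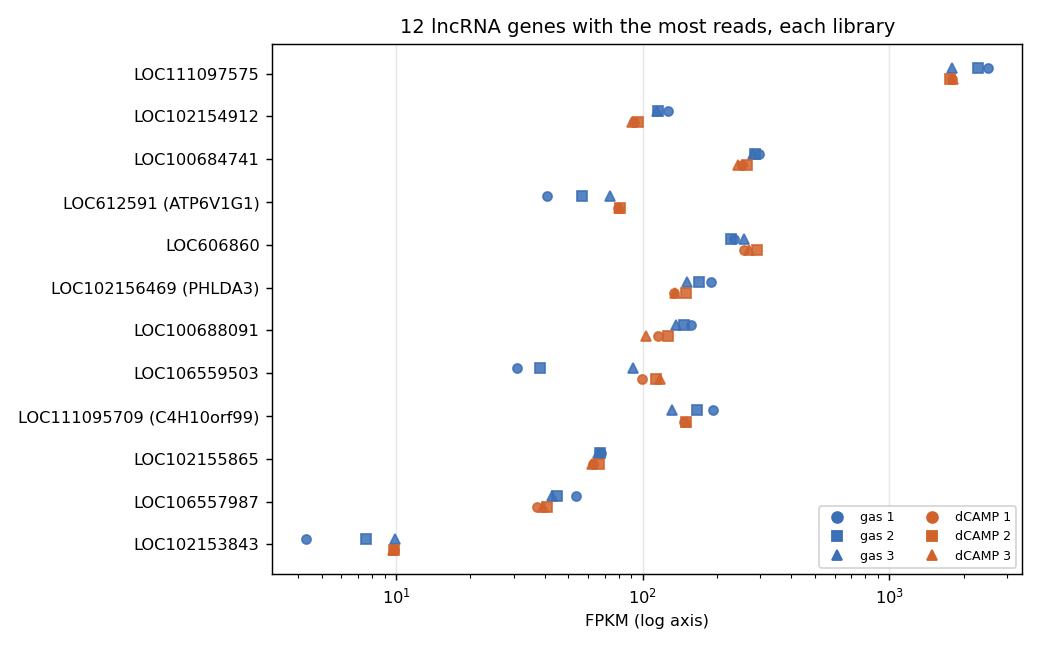
FPKM on a log axis (x) of the 12 lncRNA genes with the most reads (y), 1 point per library, blue for the 3 gas libraries and orange for the 3 dCAMP libraries. LOC111097575 lies far to the right of the others, and in LOC612591 (ATP6V1G1), LOC106559503 and LOC102153843 the gas points spread widely while the dCAMP points lie close together.

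The lncRNA genes as a whole took nearly the same share of the counts in both groups. All 10681 lncRNA genes together held 0.575 ± 0.0152% of the counts of a gas library and 0.569 ± 0.00479% of those of a dCAMP library (SD, n = 3 each; two-sided exact permutation test, p = 0.7). The 201 well-counted genes held 0.504 ± 0.0170% and 0.489 ± 0.00276% (SD, n = 3 each; exact permutation p = 0.3). The 3 most counted genes alone held 0.183 ± 0.0244% and 0.151 ± 0.00169%, and here the groups did not overlap (SD, n = 3 each, exact permutation p = 0.1, the smallest that the 20 splits of 3 against 3 libraries allow). LOC111097575, the largest of them, held 0.131 ± 0.0221% and 0.107 ± 0.00294%, and its groups overlapped (SD, n = 3 each, exact permutation p = 0.3).

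Gene by gene, more of the well-counted lncRNA genes were lower than higher, as among all genes tested, and no differences between sets of genes were tested. Against the gas control, 17 of 201 (8.46%) were higher and 23 (11.4%) were lower in dCAMP-treated cells with an unadjusted p under 0.05, where 6.81% of all 14708 genes tested were higher and 13.9% lower. Of the other lncRNA genes tested, many with low counts, 6.555% were higher and 2.74% lower, and of the protein-coding genes with 100 or more counts in each library 6.55% were higher and 18.1% lower. For the well-counted lncRNA genes, the numbers higher and lower were 33 and 41 without gas 3 and 4 and 9 without dCAMP 3. Differences of 2-fold or more that also had an unadjusted p under 0.05 numbered 3 (1.49%), all higher, against 0.959% higher and 0.136% lower among all genes tested, 1.09% in either direction. In either direction the share was 0.347% for the protein-coding genes with 100 or more counts in each library and 2.98% for the other lncRNA genes tested. With Benjamini-Hochberg adjustment over all genes tested, edgeR gave 0 well-counted lncRNA genes with an adjusted p under 0.05, as it did for all genes (0.0%), and the smallest adjusted p among them was 0.221, although 40 passed 0.05 before adjustment. By DESeq2 there were 2, LOC102151423 (log2 fold change 1.04, adjusted p = 0.0147) and LOC102151135 (−0.69, adjusted p = 0.0487), where 1.05% of all genes passed. Without gas 3, edgeR gave 44, of which 19 were higher and 25 lower, where 33.1% of all genes passed, and all 44 were among the 103 that limma's voom with sample quality weights gave from all 6 libraries, where 60.8% of all genes passed. Of the 37 lncRNA genes chosen for naming by rule, 22 had an adjusted p under 0.05 without gas 3 and 0 without any other 1 library.

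The median log2 fold change of the well-counted lncRNA genes was 0.01, with quartiles of −0.18 and 0.22 and a range of −0.72 to 1.63. It was 0.08 for the other lncRNA genes tested, −0.01 for the protein-coding genes with 100 or more counts in each library and 0.03 for all genes tested. The 3 dCAMP libraries all lay above the 3 gas libraries for 29 well-counted lncRNA genes (14.4%) and all below for 39 (19.4%), against 19.0% and 20.9% of all genes tested. The SD of log2 CPM between replicates had a median of 0.18 over the genes in the gas group and 0.11 in the dCAMP group, and was larger in the gas control for 139 of the 201 genes, against 12000 of all 14708 genes tested. Gas 1 was the lowest of the 6 libraries for 30.35% of the 201 genes and the highest for 30.85%, against 39.2% and 36.9% of all genes tested.

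The gene with the largest difference was LOC100686903, at chr17:5956924-5958833, now listed as the protein-coding gene ID2. It had 5.23, 16.7 and 26.5 CPM in gas libraries 1, 2 and 3 and 47.6, 55.0 and 47.9 CPM in the dCAMP libraries. All dCAMP libraries were above all gas libraries, and the lowest gas library was gas 1. The log2 fold change was 1.63 (SE 0.53, edgeR, unadjusted p = 0.0198, adjusted p = 0.221), 1.20 without gas 1 and 2.15 without gas 3, and the 2-fold call held in each fit that left out 1 library. The nearest protein-coding gene, KIDINS220, 24374 bases away, had 77.7, 99.4 and 140.4 CPM against 166.4, 165.8 and 170.2 CPM (log2 fold change 0.66, unadjusted p = 0.0183).

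LOC102151423 lay wholly inside the locus of HGD, an enzyme of tyrosine breakdown, at chr33:24071546-24101287. It had 4.06, 6.84 and 6.79 CPM in the gas libraries and 12.3, 11.1 and 13.3 CPM in the dCAMP libraries, so that the lowest dCAMP library was well above the highest gas library. The log2 fold change was 1.05 (SE 0.22, edgeR, unadjusted p = 0.00275, adjusted p = 0.221). It was under the 2-fold limit without gas 1 (0.82), without dCAMP 3 (0.96), with voom (0.87) and on the scale of log2 of FPKM plus 1 (0.74). HGD itself had at most 0.332 CPM in any library and was at 0 in gas 3 and dCAMP 1, so its own reads were few beside those of the lncRNA gene.

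LOC106559503, at chr11:66271017-66277009, lay between DNAJC25 and C11H9orf84 and is not listed in the newer annotation, so its class as noncoding was not checked. It had 46.2, 59.1 and 142.2 CPM in the gas libraries and 153.3, 173.4 and 180.2 CPM in the dCAMP libraries. Gas 3 was close to dCAMP 1, and gas 1 and gas 2 were far below. The log2 fold change of 1.03 (SE 0.42, edgeR, unadjusted p = 0.0450, adjusted p = 0.239) was 0.74 without gas 1, 0.83 without gas 2 and 1.64 without gas 3, and the call was lost in 5 of the 6 fits that left out 1 library, the exception being the one without gas 3. With upper-quartile scaling it also fell under the 2-fold limit, at 0.99, as did LOC102151423, at 0.98.

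Among the well-counted lncRNA genes with an unadjusted p under 0.05, the next highest log2 fold changes were those of LOC106558298, 1668 bases from DUSP19, and LOC100687817, 186 bases from RAP2A. LOC106558298 had 6.07, 7.26 and 14.1 CPM in the gas libraries and 15.0, 16.7 and 15.6 CPM in the dCAMP libraries (log2 fold change 0.79, SE 0.32, and 1.19 without gas 3). LOC100687817 had 2.77, 3.65 and 5.03 CPM against 5.70, 6.53 and 7.06 CPM (log2 fold change 0.75, SE 0.23). The coding neighbours had log2 fold changes in the same direction, 0.53 for the phosphatase gene DUSP19 and 0.70 for the small GTPase gene RAP2A, with unadjusted p-values of 0.0630 and 0.0805.

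At the other end, the lowest log2 fold changes with an unadjusted p under 0.05 were those of LOC111090909, LOC102151135, LOC102152808, LOC102156785 and LOC106558651. LOC111090909, 100 bases from the proteasome subunit gene PSMC2, had 5.92, 6.50 and 3.56 CPM in the gas libraries and 3.71, 3.15 and 2.81 CPM in the dCAMP libraries, with gas 3 below dCAMP 1 (log2 fold change −0.72, SE 0.25). PSMC2 had a log2 fold change of −0.06 (unadjusted p = 0.488). LOC106558651, whose only transcript has 206 bases, had 37.2, 34.1 and 27.6 CPM against 22.9, 22.4 and 22.7 CPM (log2 fold change −0.54, SE 0.13). The other 3 are snoRNA host genes.

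snoRNA host genes are transcribed and spliced like other genes, and their introns are trimmed to snoRNAs that guide the chemical modification of ribosomal RNA, box C/D snoRNAs for 2′-O-methylation and box H/ACA snoRNAs for pseudouridylation. The libraries measured the spliced, polyadenylated host RNA and not the snoRNAs. Of the 14 host genes, 10 had a log2 fold change below 0, 7 were lower with an unadjusted p under 0.05 and 0 were higher, and 9 had all dCAMP libraries below all gas libraries while 0 had all above. Over all genes tested, 13.9% were lower and 6.81% higher at that p, and 20.9% lay all below and 19.0% all above. Among the other 187 well-counted genes 16 were lower and 17 higher, and 30 lay all below and 29 all above. The median log2 fold change was 0.02 for these 187 and −0.20 for the host genes. The median of the host genes became −0.21 without gas 1 and −0.27 without gas 3, and in the fits that left out 1 library 5 to 8 host genes were lower with an unadjusted p under 0.05 and 0 were higher, apart from 1 without gas 3.

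LOC102151135, at chr9:48831863-48834781 and 1541 bases from FAM69B, had the lowest log2 fold change of the host genes. It had 8.99, 6.99 and 6.66 CPM in the gas libraries and 4.53, 5.06 and 4.603 CPM in the dCAMP libraries (log2 fold change −0.67, SE 0.15, unadjusted p = 0.00422). LOC102152808, at chr9:38089089-38091810 and 128 bases from LOC491140, had 9.89, 8.49 and 7.09 CPM against 5.14, 5.995 and 5.16 CPM (log2 fold change −0.64, SE 0.16, unadjusted p = 0.00620). LOC491140 had a log2 fold change of −1.08 (unadjusted p = 0.0218). Both host genes had each dCAMP library below each gas library, and they carried 2 and 1 snoRNA genes in the newer annotation.

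LOC102156785, at chr6:38805924-38822253, had 14.5, 12.9 and 11.1 CPM in the gas libraries and 8.35, 9.70 and 8.06 CPM in the dCAMP libraries (log2 fold change −0.56, SE 0.15). Its locus overlapped those of PKD1, which encodes polycystin-1, and RAB26, and since it was not given whether reads were counted by strand, reads of these genes cannot be told apart from its own. PKD1 had a log2 fold change of −0.35 (unadjusted p = 0.00997). LOC100856166, at chr9:4167063-4172999 and 2008 bases from ST6GALNAC2, had 60.04, 49.8 and 45.5 CPM against 39.3, 42.6 and 36.6 CPM (log2 fold change −0.39, SE 0.14, unadjusted p = 0.0260). LOC100688091, LOC102155122 and LOC100684741, given above, complete the 7.

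The other 7 host genes were LOC100688055, LOC611209, LOC106557731, SNHG3, LOC610012, LOC100683303 and LOC100688793. LOC100688055, 35200 bases from SYNCRIP, had 65.8, 66.4 and 68.1 CPM in the gas libraries and 58.7, 62.2 and 54.0 CPM in the dCAMP libraries (log2 fold change −0.20, unadjusted p = 0.0745). LOC611209, which carries 9 snoRNA genes and overlapped the ZBTB37 locus, had 47.8, 46.7 and 46.8 CPM against 46.4, 38.1 and 41.5 CPM (log2 fold change −0.17, unadjusted p = 0.165). In both genes the groups were separate but close. LOC106557731 had a log2 fold change of −0.20 (unadjusted p = 0.167) that was −0.32 without gas 3, and its locus overlapped that of another well-counted gene, LOC111092068.

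SNHG3, one of only 2 well-counted lncRNA genes with a name in place of a number, had 9.25, 11.95 and 12.1 CPM in the gas libraries and 11.5, 10.6 and 11.2 CPM in the dCAMP libraries. Its log2 fold change of 0.00 (SE 0.14, unadjusted p = 0.993) changed sign with the scaling. RCC1, a chromatin-bound exchange factor for Ran and 319 bases away, had a log2 fold change of −0.46 (unadjusted p = 0.00466). LOC610012, 287 bases from TRNAU1AP on the same chromosome, had a log2 fold change of 0.08 (unadjusted p = 0.606), a direction that turned with upper-quartile scaling, and LOC100683303, which overlapped the MCMDC2 locus, had one of 0.14 (unadjusted p = 0.283), which was 0.05 without gas 1. LOC100688793 had 9.96, 24.8 and 41.6 CPM in the gas libraries and 37.7, 43.0 and 37.3 CPM in the dCAMP libraries. Its log2 fold change of 0.63 (SE 0.47, unadjusted p = 0.224) was 0.23 without gas 1 and 1.13 without gas 3.

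**Figure D3:**
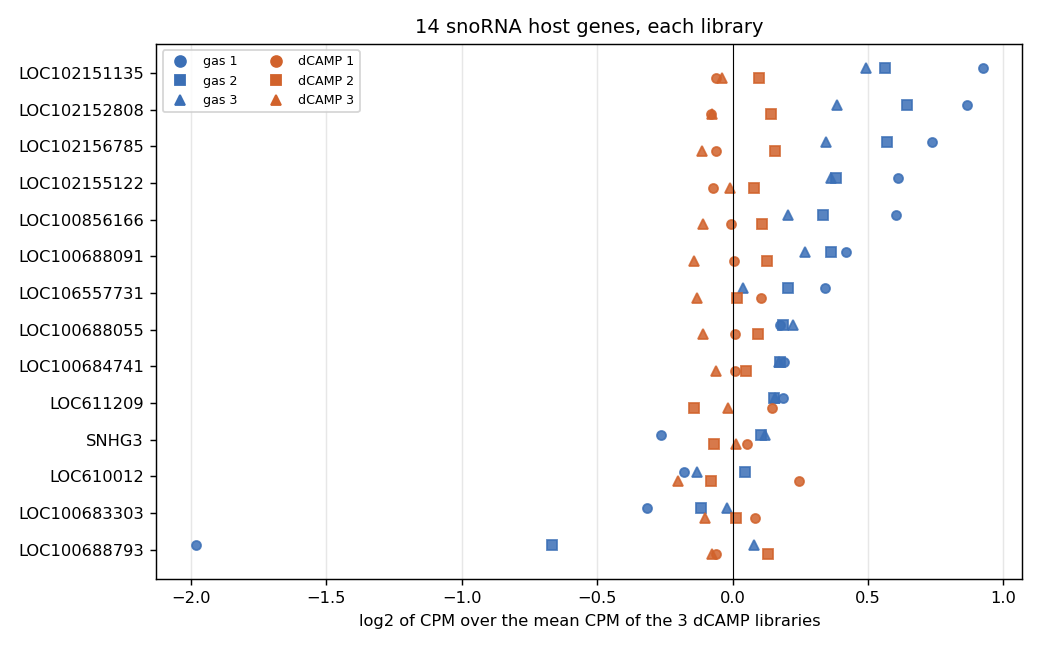
The 14 snoRNA host genes (y axis), with each library's CPM as a log2 ratio to the mean CPM of the 3 dCAMP libraries (x axis), blue for gas and orange for dCAMP. In 9 of the 10 uppermost genes the 3 gas points lie to the right of all dCAMP points, and in LOC100688793 gas 1 lies far to the left.

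The host genes were also short: their longest transcripts had a median of 788.5 bases, against 2168 for the other 187 genes. Across the 201 genes, the log2 of the longest transcript's length went with the log2 fold change (Pearson's r = 0.29, Spearman's rho = 0.31), and across all 14708 genes tested r was 0.17 and rho 0.21; genes share the libraries and are not independent replicates. Of the 51 genes with a longest transcript under 1000 bases, 12 were lower and 0 higher with an unadjusted p under 0.05, and of the 68 genes with 2000 to under 4000 bases 2 were lower and 10 higher. Over all genes tested, of any length, 13.9% were lower and 6.81% higher. Among the 39 short genes that were not snoRNA hosts, 7 were lower and 0 higher, and the median log2 fold change was −0.08, against −0.19 for the 12 short host genes. The number lower among the 51 was 4 without dCAMP 3 and 16 without gas 3, that among the 39 was 1 and 10, and the number higher among the 68 was 2 and 16. The part of length in the values of the host genes was not tested.

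A further 5 well-counted genes that the newer annotation does not list lay between the same coding neighbours as snoRNA genes of that annotation, and their median log2 fold change was −0.34. The snoRNA genes of the host genes described above were not left out here, so these 5 are not cases separate from the hosts. LOC102154912 and LOC111098614 were among the 5 and lay beside the host gene LOC102155122. LOC111092068, at chr24:26914892-26925686, overlapped the host gene LOC106557731. It had 35.0, 27.8 and 26.8 CPM in the gas libraries and 24.2, 22.3 and 22.9 CPM in the dCAMP libraries (log2 fold change −0.37, unadjusted p = 0.0305). LOC102156058, at chr15:3305526-3327706 between PABPC4 and MACF1, had 11.6, 11.6 and 10.5 CPM against 8.81, 9.49 and 8.54 CPM (log2 fold change −0.33, unadjusted p = 0.0211). LOC111092109 had a log2 fold change of −0.11 (unadjusted p = 0.408). The 4 others each had all dCAMP libraries below all gas libraries, as did 20.9% of all genes tested. The number of the 5 that were lower with an unadjusted p under 0.05 was 4, and it was 1 without dCAMP 1 or without dCAMP 3 and 2 without gas 2 or without dCAMP 2. Among all genes tested, 13.9% were lower at that p in the fit of all libraries.

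Proteins that bind, modify, cut or export noncoding RNA were read from a list of 30 genes, of which 26 were tested. With an unadjusted p under 0.05, 1 was higher and 9 were lower, where 6.81% of all genes tested were higher and 13.9% lower, and these counts were 7 and 11 without gas 3 and 0 and 5 without dCAMP 1 or without dCAMP 3. Of the 26, 0 reached a 2-fold change, 0 had an adjusted p under 0.05, and the median log2 fold change was −0.01. The 3 core proteins of snoRNA particles on the list were all lower. DKC1, the pseudouridine synthase of box H/ACA particles, had 314.0, 282.7 and 247.3 CPM in the gas libraries and 189.0, 209.0 and 193.4 CPM in the dCAMP libraries (log2 fold change −0.51, SE 0.11). FBL, the methyltransferase of box C/D particles, had 453.9, 408.9 and 355.2 CPM against 298.9, 308.5 and 297.9 CPM (log2 fold change −0.43, SE 0.10). NOP56, a scaffold of the box C/D particles, had 319.6, 301.7 and 285.8 CPM against 221.7, 249.7 and 226.8 CPM (log2 fold change −0.38, SE 0.09).

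In all 3 genes the dCAMP libraries lay below the gas libraries, and the log2 fold changes without gas 1 were −0.45 for DKC1, −0.36 for FBL and −0.35 for NOP56, with adjusted p-values of 0.221 each in the fit of all libraries. The other lower genes included EXOSC10 of the nuclear exosome (−0.33), the poly(A)-binding protein gene PABPN1 (−0.28), UPF1, the helicase of nonsense-mediated decay (−0.30), the cleavage factor gene CSTF2 (−0.24) and the mRNA exporter gene NXF1 (−0.36). PSPC1, a protein of nuclear paraspeckles, was higher (0.23). The paraspeckle proteins NONO and SFPQ had log2 fold changes of −0.07 and 0.05, with unadjusted p-values of 0.432 and 0.732.

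**Figure D4:**
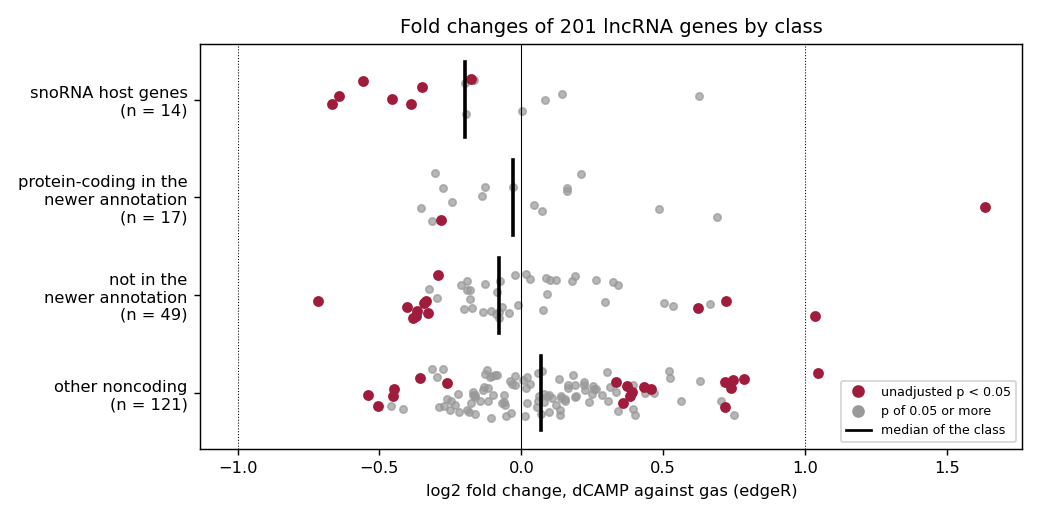
log2 fold change of dCAMP against gas from edgeR (x axis) for the 201 well-counted lncRNA genes in 4 classes of the newer annotation (y axis), 1 point per gene with a vertical offset for legibility. Red points have an unadjusted p under 0.05, black bars mark the class medians, and dotted lines mark a 2-fold change. The median is −0.20 for the snoRNA host genes and 0.07 for the other noncoding genes.

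In the other classes, the median log2 fold change was 0.07 for the 121 remaining noncoding genes, with 13 higher and 6 lower at an unadjusted p under 0.05. The 17 genes now listed as protein-coding had a median of −0.03, with ID2 higher and PHLDA3 lower. The 49 genes absent from the newer annotation had a median of −0.08, with 3 higher and 9 lower. At that p, 6.81% of all genes tested were higher and 13.9% lower. The other named gene, H19, an imprinted gene between MRPL23 and IGF2, had 9.98, 11.7 and 7.20 CPM in the gas libraries and 6.43, 7.16 and 8.01 CPM in the dCAMP libraries, and the groups overlapped. Its log2 fold change of −0.42 (SE 0.20, unadjusted p = 0.0810) was −0.63 without gas 3 (adjusted p = 0.0279) and −0.29 without gas 2.

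Genes of microRNAs lay in 3 of the well-counted loci. LOC102157078, on chromosome X at chrX:57544811-57595766, held MIR374A, MIR421, MIR374B and MIR545 and had 7.65, 11.02 and 11.7 CPM in the gas libraries and 13.6, 13.5 and 13.99 CPM in the dCAMP libraries (log2 fold change 0.43, SE 0.18, unadjusted p = 0.0467). LOC111090004, at chr5:12096782-12108809, held MIR125B-1 and had 6.89, 8.98 and 15.0 CPM against 17.3, 15.0 and 18.6 CPM (log2 fold change 0.72, SE 0.29, unadjusted p = 0.0450). VSNL1 (LOC111090507), whose locus held MIR8845, had 21.5, 19.3 and 19.8 CPM against 20.2, 19.4 and 19.8 CPM (log2 fold change −0.03, unadjusted p = 0.786). In the first 2 all dCAMP libraries were above all gas libraries, with gas 3 nearest to them, and the log2 fold changes were 0.25 and 0.49 without gas 1.

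Set out by position, the median log2 fold change was 0.16 for the 16 genes inside a protein-coding locus, with 4 higher and 0 lower at an unadjusted p under 0.05. The 33 with partial overlap had a median of −0.06 (2 higher, 2 lower), the 7 that held a coding locus −0.14 (0 higher, 1 lower), the 87 within 5000 bases −0.07 (3 higher, 15 lower) and the 58 farther away 0.06 (8 higher, 5 lower). Over all genes tested, 6.81% were higher and 13.9% lower at that p. Without gas 3 the 87 nearby genes had 13 higher and 22 lower, and without dCAMP 3 they had 0 higher and 6 lower, while the count of higher genes inside coding loci was 2 without gas 2 or without any 1 of the dCAMP libraries. Where loci overlap, the deposited counts do not show how shared reads were assigned, and the library kit keeps strand but its use in counting was not given. Of the 201 genes, 124 overlapped no other gene of the table, and among these 8 were higher and 17 lower.

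The 4 higher genes inside coding loci were LOC102151423 in HGD, LOC111091730 in GAS6, LOC102151902 in ALPK2 and LOC111095600 in SH3TC2. LOC111091730 had 13.9, 12.5 and 10.8 CPM in the gas libraries and 16.4, 15.7 and 16.7 CPM in the dCAMP libraries (log2 fold change 0.39, unadjusted p = 0.0194), and GAS6, a ligand of the TAM receptor kinases, had a log2 fold change of 0.27 (unadjusted p = 0.392). LOC102151902 had 14.1, 15.6 and 14.2 CPM against 19.1, 20.3 and 17.7 CPM (log2 fold change 0.38, unadjusted p = 0.0109), and ALPK2 had a log2 fold change of 0.02 (unadjusted p = 0.804). LOC111095600 had 3.65, 2.70 and 3.07 CPM against 6.28, 3.36 and 5.95 CPM, with dCAMP 2 below gas 1 (log2 fold change 0.72, unadjusted p = 0.0324). SH3TC2 had a log2 fold change of 0.32 (unadjusted p = 0.0726). These genes are named because they make up the count; apart from LOC102151423 they were chosen after their values were seen.

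Side by side with the overlapping or nearest protein-coding gene, where that gene was tested, the log2 fold changes had the same sign in 33 of 45 overlapping pairs, 52 of 84 pairs within 5000 bases and 31 of 48 pairs farther apart. Pearson's r across pairs was 0.48, 0.38 and 0.24 in that order, and Spearman's rho 0.50, 0.34 and 0.25. These are descriptions across gene pairs that share the libraries and, where the loci overlap, may share reads, and the differences between the 3 groups of pairs were not tested.

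**Figure D5:**
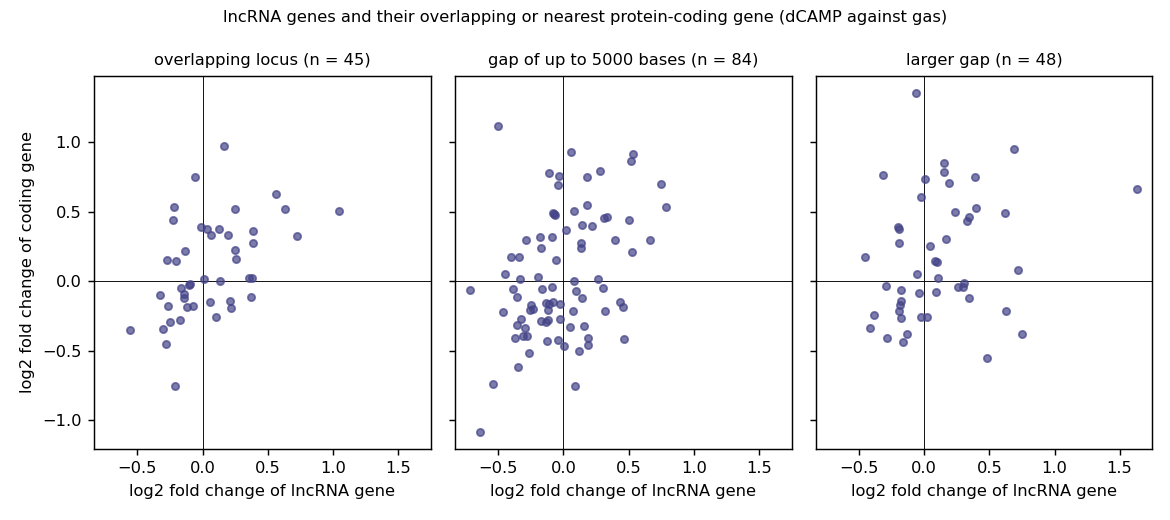
log2 fold change (dCAMP against gas) of each well-counted lncRNA gene (x axis) and of its overlapping or nearest protein-coding gene (y axis), 1 point per pair, in panels for 45 overlapping pairs, 84 pairs with a gap of up to 5000 bases and 48 pairs with a larger gap. The sign is the same in 33, 52 and 31 of the pairs.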

How the data were processed

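RNA-Seq of 3 gas and 3 dCAMP libraries of CPEK cells was used. Per the labels and the methods, the authors trimmed reads (Trimmomatic 0.38, after FastQC 0.11.7), mapped them to CanFam3.1 with HISAT2 2.1.0 and summarized known transcripts with StringTie 2.1.3b. The deposited read counts per gene and transcript are whole numbers that the authors did not normalize, and their FPKM values are scaled to transcript length and sequencing depth. The authors also deposited TPM values, which are scaled to length and to the same total in each library, and these were not used. How reads on overlapping genes were counted and whether strand was used is not given in the sources used here. Gene loci were taken as the span of a gene's transcripts, without strand or exons, and gene counts equalled the sum of transcript counts within 1 for all 35993 genes. Gene identifiers were matched to RefSeq (UU_Cfam_GSD_1.0) for names, classes and neighbours; 30915 of 35993 matched.

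Counts of all genes were fitted in R 4.3.3 with edgeR 4.0.16 (TMM, filterByExpr, quasi-likelihood test, prior count 2), dCAMP against gas, with Benjamini-Hochberg adjustment over the 14708 genes tested; standard errors came from the fold change and the F statistic. CPM are scaled to TMM library sizes. The call by size required 2-fold or more and an unadjusted p under 0.05. Alternatives were DESeq2 1.42.0 on the genes detected in all libraries, upper-quartile or RLE factors, omission of the filter, the replicate number as a block, limma 3.58.1 (voom with sample quality weights; log2 of FPKM plus 1 or plus 0.1), other count minimums or overlaps for membership, and leaving out each library; for the classes and the RNA-processing list the latter was chosen after seeing the data. The steps were tested on simulated data with 200 genes changed 3-fold and the same dispersion in both groups. edgeR recovered 99.5% of them at a dispersion of 0.01 and 96.5% at 0.05, with 8 and 5 false calls. The simulation did not include the wider spread of the gas libraries or smaller changes, so it does not show how the steps perform under those.

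The genes named are the 12 most counted, the 5 highest and 5 lowest with an unadjusted p under 0.05, those with a symbol, hosts of miRNAs or snoRNAs, the 3 on either side of the count minimum, the 3 highest by FPKM, those called, and their coding neighbours; other genes named were chosen after their values were seen. The genes described, the lists and the naming rule were chosen with earlier results of these data known. Library depth was 43084921 to 54082634 counts, and intervals were not drawn for single libraries.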

Additional observations from a re-analysis of the deposited data

How the results depend on the processing

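Of 37 named genes, 33 kept their direction in all 14 alternative fits. SNHG3 turned negative with DESeq2 (−0.0134), RLE factors (−0.0074), upper-quartile factors (−0.0772), no filter (−0.0071) and voom (−0.0908), and ranged from −0.131 to 0.0327 with 1 library left out. LOC111090507 (VSNL1) was 0.041 with voom and −0.0905 to 0.002995 with 1 library left out. LOC610012 was −0.0023 with upper-quartile factors, −0.0388 with voom and −0.0556 to 0.141 with 1 library left out. LOC106558729, 0.05 in the fit of all libraries, was −0.0266 with upper-quartile factors and −0.0652 to 0.109 with 1 library left out. Genes called at 2-fold numbered 1 with upper-quartile factors and 1 to 9 with 1 library left out (9 without gas 3, 1 without gas 1 or dCAMP 3). Genes with an adjusted p under 0.05 numbered 2 with DESeq2, 103 with voom and 0 to 44 with 1 library left out. Genes higher with an unadjusted p under 0.05 (17) numbered 11 with upper-quartile factors, 54 with voom, 11 among 120 genes with 200 or more counts in each library, 8 among 124 overlapping no other gene, and 4 to 33 with 1 library left out. Genes lower (23) numbered 57 with voom and 9 to 41 with 1 library left out. The median log2 fold change (0.0057) was −0.0085 with DESeq2, −0.0788 with upper-quartile factors, where the median of all genes was −0.0597, −0.0479 at 200 or more counts, −0.0221 without overlaps, and −0.0748 to 0.002995 with 1 library left out. The smaller lists hold fewer genes by construction; the other causes were not tested.

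Whether replicate numbers pair the libraries could not be settled with 3 libraries per group. Correlations of deviations were 0.130, 0.0237 and 0.0479 for equal numbers and −0.139 to 0.0873 for unequal ones. Gas 1 and gas 2 correlated best with the equal number, and gas 3 with dCAMP 2. With the replicate block 19 genes were higher, 14 lower, 3 called and 0 had an adjusted p under 0.05. Overlap between exons was not run, since exons were not used here. At these depths a gene with 100 counts is measured far less precisely than LOC111097575, and the spread of the gas libraries limits every comparison.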
